A study of Mus musculus with 15 samples.

Results

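Genes encoding acetylcholine receptors, chosen by symbol, were followed in RNA sequencing of sorted mouse islet cells. They were the 5 muscarinic receptor genes Chrm1 to Chrm5 and the nicotinic subunit genes Chrna3, Chrna4, Chrna7, Chrnb2 and Chrnb4, 10 of the 38283 genes for which expression values were deposited. All 10 were present in the table, each as 1 row. The question was in which of 3 islet cell types each receptor gene was transcribed, and at what level. The Glu-Venus line, in which the Venus fluorophore is driven by the proglucagon promoter, gave 5 samples of alpha cells and 4 of beta cells. The latter were collected as Venus-negative cells of high scatter and high autofluorescence. The Sst-CreXROSA26EYFP/EYFP line gave 6 samples of delta cells. In these mice Cre driven by the Sst promoter switches on a yellow fluorescent protein. All mice were of the C57BL/6 strain and untreated, and their ages were not given in the sources used here. Each sample was pooled from several mice, so the spread below is one between pools, and the difference between delta cells and the other cells cannot be told apart from the difference between the mouse lines. Expression is given as FPKM, that is, fragments scaled to the length of the transcript and to the size of the library.

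Acetylcholine reaches islets from parasympathetic nerve endings, and in some species from islet cells themselves. Muscarinic receptors are G-protein-coupled. M1, M3 and M5 couple to Gq, which activates phospholipase C, inositol trisphosphate, calcium release and protein kinase C, whereas M2 and M4 couple to Gi, which lowers cyclic AMP and opens G-protein-gated potassium channels. The M3 receptor of beta cells is known to potentiate glucose-stimulated insulin secretion. Nicotinic receptors are pentameric cation channels. The alpha4 subunit assembles with beta2, alpha3 with beta4, and alpha7 forms channels on its own. Acetylcholine is broken down by acetylcholinesterase.

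The windows upstream of 2 members are shown, because Chrm4 differed between the cell types and Chrnb2 did not pass the test in any comparison. They are the 250 bases before the RefSeq start of each gene on GRCm38.p6, 5′ to 3′ on the gene's strand, and neither overlaps a gene model of RefSeq or GENCODE. The Chrm4 window lies at chr2:91921939-91922188 on the plus strand and the Chrnb2 window at chr3:89764633-89764882 on the minus strand. Capitals mark matches, on either strand, to the letters CCAAT or GGGCGG (GC box), and in Chrm4 the last GC boxes overlap.
Chrm4: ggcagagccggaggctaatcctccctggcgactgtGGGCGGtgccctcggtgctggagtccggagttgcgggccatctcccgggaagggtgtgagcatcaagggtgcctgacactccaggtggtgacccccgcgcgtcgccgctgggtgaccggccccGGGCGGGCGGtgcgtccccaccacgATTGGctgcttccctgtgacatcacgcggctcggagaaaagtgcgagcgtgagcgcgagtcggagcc
Chrnb2: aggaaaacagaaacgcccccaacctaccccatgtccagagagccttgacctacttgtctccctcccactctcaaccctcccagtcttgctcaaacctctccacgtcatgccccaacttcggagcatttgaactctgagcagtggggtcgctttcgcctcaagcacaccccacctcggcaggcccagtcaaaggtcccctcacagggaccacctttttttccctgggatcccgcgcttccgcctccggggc

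The Chrm4 window held 3 GC boxes and 1 CCAAT box, and the Chrnb2 window held neither. Of 32851 such windows in the RefSeq table, 32.7% held a GC box and 33.8% a CCAAT box. The letters TATAAA, TGACGTCA (the cyclic AMP response element) and TCAGCACC (part of the element bound by the neuronal silencer REST), searched on both strands and present in 12.4%, 1.55% and 1.32% of all windows, were in neither window. The Chrm4 window held 26 CpG dinucleotides, more than 90.4% of all windows, and Chrnb2 held 10, more than 62.2%, against a median of 6 over all windows. GC content was 70.0% for Chrm4 and 59.6% for Chrnb2, with a median of 52.4%. The windows of 9 of the 10 members were matched. Those of Chrm2, Chrm3, Chrm5, Chrna4, Chrna7 and Chrnb4 overlap a gene model in whole or in part and are not printed. These matches are descriptions of letters only.

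Chrm3 and Chrm4 were the only members whose expression passed the test for a difference between cell types. Chrm3, encoding the Gq-coupled M3 receptor, was highest in beta cells, at 8.56 times the mean of alpha cells and 5.13 times that of delta cells. Chrm4, encoding the Gi-coupled M4 receptor, was highest in delta cells, at 9.84 times the mean of alpha cells and 17.5 times that of beta cells. The first of these folds was 16.1 without alpha sample 1. Chrnb2, encoding the beta2 nicotinic subunit, was transcribed in all 3 cell types and did not pass the test in any comparison. These 3 genes were the only members with a mean above 1 FPKM in any cell type, which was the condition for testing, and the other 7 were below it.

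**Figure D1:**
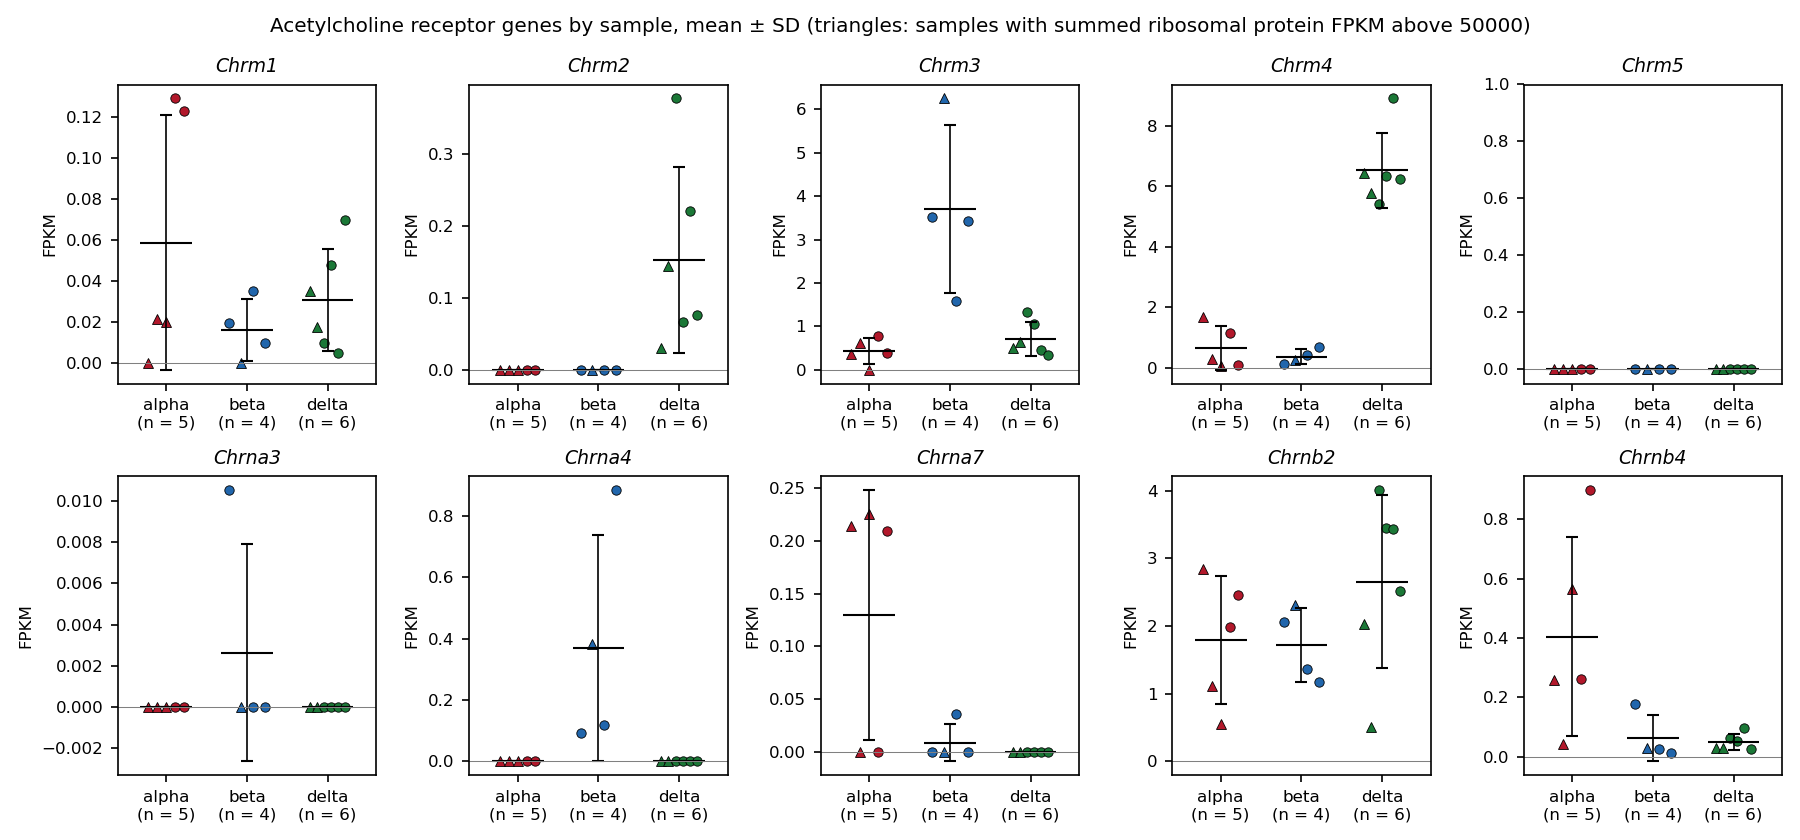
FPKM of the 10 receptor genes in each sample (vertical axes differ between panels), by cell type, with the mean and SD. All 4 beta cell samples lie above every other sample for Chrm3, and all 6 delta cell samples for Chrm4, whereas the cell types overlap for Chrnb2, and Chrm5 is listed at 0 throughout.

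Chrm3 was at 3.53, 6.26, 1.58 and 3.44 FPKM in beta samples 1 to 4. It was at 0.362, 0.619, 0, 0.788 and 0.392 FPKM in alpha samples 1 to 5, and at 0.498, 0.636, 1.34, 1.06, 0.450 and 0.345 FPKM in delta samples 1 to 6. The beta cells did not overlap either of the other cell types, while alpha and delta cells overlapped. The mean in beta cells was 3.70 ± 1.93 FPKM (SD, n = 4). Delta cells averaged 0.721 ± 0.391 (SD, n = 6) and alpha cells 0.432 ± 0.298 FPKM (SD, n = 5). On the log2(FPKM + 1) scale, on which fold changes of low genes are understated, the difference of beta from alpha cells was 1.65 ± 0.32 (SE; limma, adjusted p = 0.00456). The difference of delta from beta cells was -1.38 ± 0.31 (SE; limma, adjusted p = 0.00650). Delta and alpha cells did not differ beyond their spread (0.26 ± 0.29, SE; limma, adjusted p = 0.723). Beta cells against alpha cells gave p = 0.0159 by a two-sided exact permutation test, and against delta cells p = 0.00952, the smallest values that samples of these numbers allow.

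Chrm4 was at 6.45, 5.78, 5.42, 6.33, 8.91 and 6.24 FPKM in delta samples 1 to 6. In alpha samples 1 to 5 it was at 1.70, 0.301, 0.0706, 1.17 and 0.0826 FPKM, and in beta samples 1 to 4 at 0.139, 0.245, 0.428 and 0.681 FPKM. The lowest delta cell sample exceeded the highest of the other cell types, and among alpha cells samples 1 and 4 were above the other three. Without sample 1 the alpha cell mean was 0.405 FPKM. The mean in delta cells was 6.52 ± 1.23 FPKM (SD, n = 6). Alpha cells averaged 0.663 ± 0.731 (SD, n = 5) and beta cells 0.373 ± 0.237 FPKM (SD, n = 4). Chrm4 was the most highly expressed of the 10 members in any cell type, and 6518 genes of the table had a higher mean in delta cells. The difference of delta from alpha cells was 2.27 ± 0.28 on the log2(FPKM + 1) scale (SE; limma, adjusted p = 6.2e-05), and that of delta from beta cells 2.45 ± 0.30 (SE; limma, adjusted p = 4.6e-05). The exact permutation p was at its smallest possible value in both, 0.00433 and 0.00952. Beta and alpha cells did not differ beyond their spread (-0.19 ± 0.31, SE; limma, adjusted p = 0.776).

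In the annotation used here (GENCODE M21, GRCm38), Chrm4 lies on chromosome 2 at 91927249 to 91928688 as 1 exon of 1440 nt, of which 1437 nt are coding, and the RefSeq start lies 5060 bases further upstream. If the authors used such a model, reads from upstream exons or UTRs did not enter its FPKM, and its level beside other genes depends on it. Chrm3 lies on chromosome 13 at 9875486 to 10360847, with 1767 coding nt. Depth could be recovered in 6 samples from the steps between low values (7.4 M to 30.5 M reads), but not in the remaining 9. The Chrm4 values there correspond to about 87.2, 72.4, 205 and 200 reads in delta samples 1 to 4. In alpha samples 2 and 5 they correspond to only about 2.8 and 2.6 reads. These numbers were computed with the 1440 nt of the model less 200 nt. As those of alpha cells are not near whole numbers, they are approximate.

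Of the 3 members tested, 1 was called higher in beta than in alpha cells (Chrm3) and none lower, where 2.84% of the 14405 genes tested were called higher and 4.82% lower. In delta against alpha cells, 1 was higher (Chrm4) and none lower, against 5.33% and 1.48% of all genes tested. In delta against beta cells, 1 was higher (Chrm4) and 1 lower (Chrm3), against 11.7% and 2.99%. The 3 comparisons share samples and are not independent. Chrm3 had a mean above 1 FPKM only in beta cells and Chrm4 only in delta cells. Both thus entered the test through the cell type in which they were high, and the counts are no measure of an excess over the background.

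**Figure D2:**
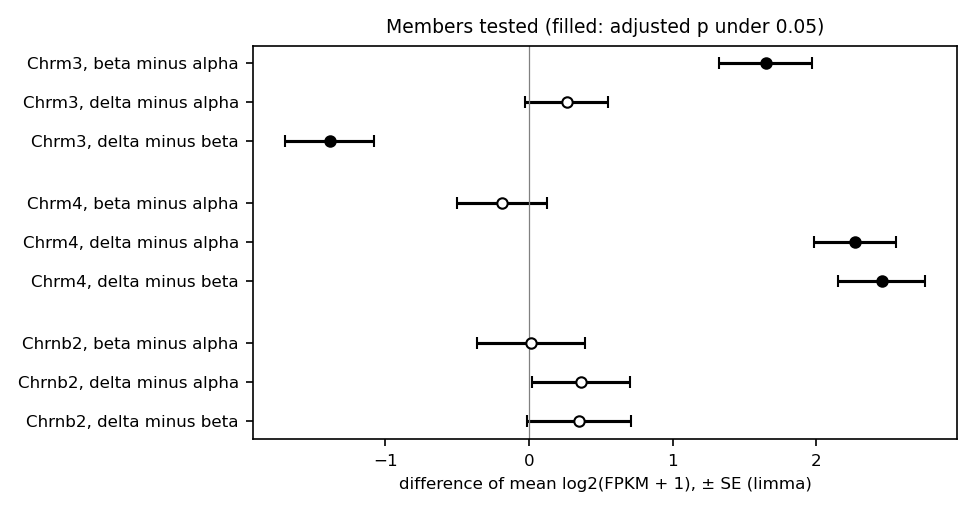
Differences of mean log2(FPKM + 1) between cell types, with SE from limma, for the 3 receptor genes tested (filled points have an adjusted p under 0.05). Chrm3 stands apart in both comparisons that include beta cells and Chrm4 in both that include delta cells, whereas the intervals of Chrnb2 lie near 0.

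As shares of the summed muscarinic FPKM, Chrm3 made up 88.1% ± 9.38 (SD, n = 4) in beta cells and Chrm4 87.6% ± 6.66 (SD, n = 6) in delta cells. The range was 77.3% to 96.2% in beta cells and 75.9% to 93.0% in delta cells. Alpha cells had no such leading gene. There Chrm4 was 52.4% ± 29.4 (SD, n = 5) and Chrm3 37.4% ± 29.1 of a small sum, with Chrm3 ahead in samples 2 and 5 and Chrm4 ahead in the others. The summed muscarinic FPKM averaged 7.43 ± 1.11 (SD) in delta cells, 4.09 ± 1.84 in beta cells and 1.15 ± 0.889 in alpha cells.

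**Figure D3:**
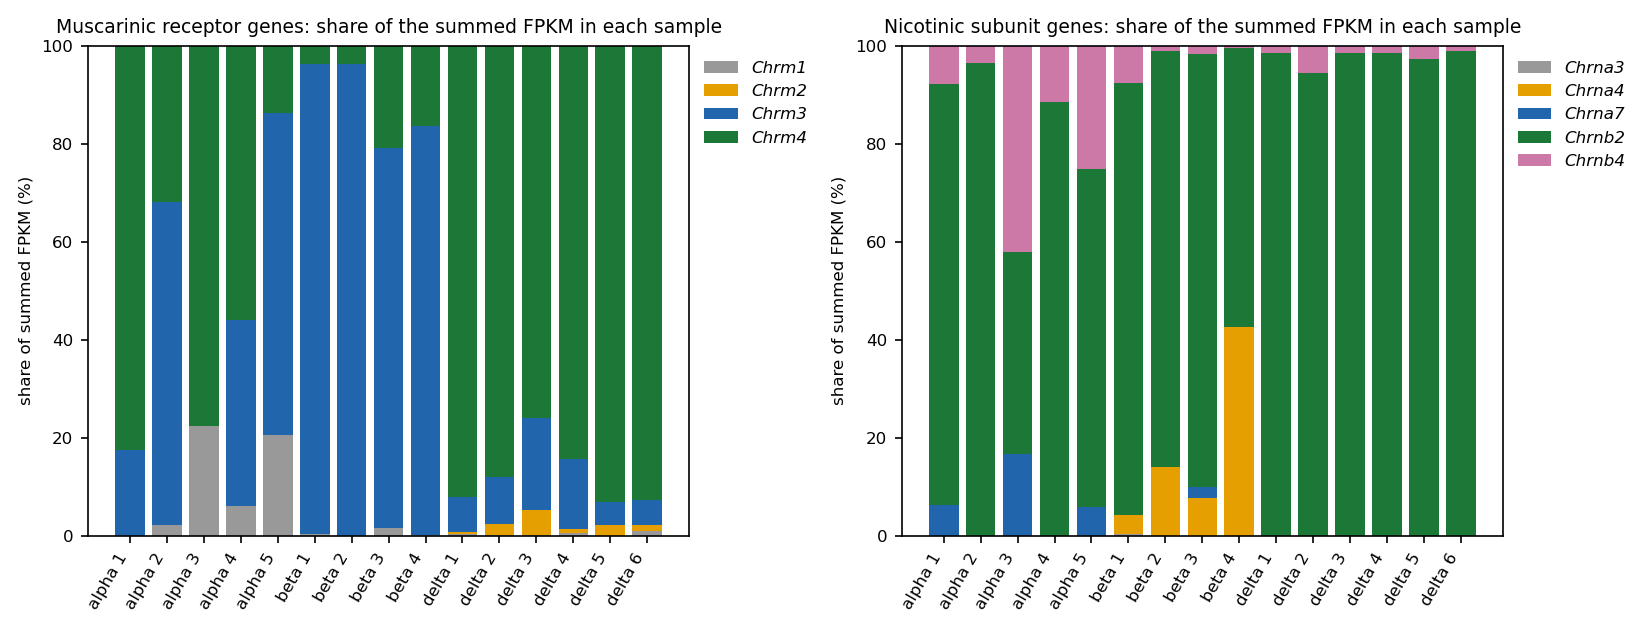
Share of each gene in the summed FPKM of the muscarinic genes (left) and of the nicotinic subunit genes (right), in percent, for each of the 15 samples. Chrm3 fills most of each beta cell bar and Chrm4 most of each delta cell bar. Of the 5 nicotinic members shown, Chrnb2 leads in all samples but alpha sample 3.

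The remaining muscarinic genes averaged under 1 FPKM in each cell type. Chrm2, encoding the M2 receptor, which like M4 couples to Gi, was listed at 0 in every alpha cell and beta cell sample and at 0.0304, 0.144, 0.377, 0.0664, 0.221 and 0.0766 FPKM in delta samples 1 to 6. It was above 0 in 6 of 6 delta cell samples and in no other, at a mean of 0.153 ± 0.129 (SD, n = 6) FPKM (exact permutation p = 0.00433 against alpha and 0.00952 against beta cells). Its model shares 142 exonic bases with the non-coding gene 9330158H04Rik on the opposite strand. Chrm1, encoding the Gq-coupled M1 receptor, averaged 0.0588 ± 0.0620 FPKM in alpha cells (SD, n = 5). Beta cells averaged 0.0163 ± 0.0151 (SD, n = 4) and delta cells 0.0310 ± 0.0249 FPKM (SD, n = 6), and the cell types overlapped. The beta cell mean was 0.00993 FPKM without beta sample 3. Chrm1 shares 329 exonic bases with Gm22820, an RNA gene on the opposite strand. Chrm5 was listed at 0 in all 15 samples. Its annotated model, like that of Chrm4, is a single exon of 1599 nt that is nearly all coding.

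Among the 5 nicotinic members, Chrnb2 had the highest mean in each cell type. Its values were 2.85, 1.12, 0.556, 1.99 and 2.46 FPKM in alpha samples 1 to 5, 2.06, 2.31, 1.36 and 1.17 FPKM in beta samples 1 to 4, and 2.02, 0.504, 4.02, 3.45, 3.43 and 2.52 FPKM in delta samples 1 to 6. The cell types overlapped, and delta sample 2 was the lowest of all samples. The means were 1.79 ± 0.947 (SD, n = 5), 1.73 ± 0.544 (SD, n = 4) and 2.66 ± 1.28 (SD, n = 6) FPKM in alpha, beta and delta cells. None of the differences passed the test (beta minus alpha 0.02 ± 0.38, delta minus alpha 0.36 ± 0.34 and delta minus beta 0.35 ± 0.36 on the log2(FPKM + 1) scale, with limma adjusted p of 1, 0.663 and 0.573). The 3 exact permutation tests gave p = 0.984, 0.329 and 0.362. In the GENCODE model, Chrnb2 shares 1365 exonic bases with Adar, an RNA-editing enzyme gene on the opposite strand. Reads in this stretch could not be assigned between them if strand was not used in counting. The GENCODE model reaches down to 89746195 on chromosome 3 but the RefSeq model only to 89753448, so the overlap depends on the model used. Adar averaged 2.66, 2.47 and 3.19 FPKM in alpha, beta and delta cells, and the ratio of Chrnb2 to Adar ranged from 0.140 to 3.33 over the samples.

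Chrna4, encoding the alpha4 subunit that assembles with beta2, was above 0 in beta cells only. It was at 0.0918, 0.383, 0.120 and 0.886 FPKM in beta samples 1 to 4, and listed at 0 in all 5 alpha and all 6 delta cell samples. The beta cell mean was 0.370 ± 0.368 (SD, n = 4) FPKM, with sample 4 the highest (0.198 without it), and the exact permutation p was at its smallest possible value, 0.0159 against alpha cells and 0.00952 against delta cells. In beta cells Chrna4 made up 17.1% ± 17.6 (SD, n = 4) of the summed FPKM of the nicotinic members and Chrnb2 79.4% ± 15.2. The share of Chrna4 was 3.92%, 14.1%, 7.77% and 42.7% in samples 1 to 4, and its mean without sample 4 was 8.58%.

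Chrnb4 and Chrna7 were low and had their highest means in alpha cells. Chrnb4, encoding the beta4 subunit, was at 0.258, 0.0414, 0.566, 0.261 and 0.901 FPKM in alpha samples 1 to 5. It ranged from 0.0124 to 0.179 FPKM in beta cells and from 0.0260 to 0.0978 in delta cells, so that alpha sample 2 lay within both. The means were 0.405 ± 0.334 (SD, n = 5), 0.0624 ± 0.0781 (SD, n = 4) and 0.0505 ± 0.0277 (SD, n = 6) FPKM in alpha, beta and delta cells (exact permutation p = 0.0317 for beta against alpha and 0.0173 for delta against alpha cells). The beta cell mean was 0.0235 FPKM without beta sample 1. Where depth could be recovered, the Chrnb4 values correspond to about 80.6 reads in alpha sample 5 but 1.08 in alpha sample 2, and to between 1.07 and 6.90 reads in delta samples 1 to 4. Chrna7, encoding the alpha7 subunit, was above 0 in 3 of 5 alpha cell samples (0.214, 0.226 and 0.210 FPKM). It was also above 0 in 1 of 4 beta cell samples (0.0358 FPKM) and in no delta cell sample. The exact permutation p for Chrna7 was 0.121 for delta against alpha cells and 0.238 for beta against alpha cells. Chrna3, encoding the alpha3 subunit and lying 1591 bases from Chrnb4 on chromosome 9, was above 0 only in beta sample 1, at 0.0105 FPKM.

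The exact permutation p-values are two-sided and unadjusted, and 24 such tests were computed over the members. Without the filter on low values, 9 of the members entered the fit. The number called was then 1 for beta against alpha cells (4.07% of all genes tested), 1 for delta against alpha cells (4.71%) and 3 for delta against beta cells (9.08%), the added member being Chrna4 (limma, adjusted p = 0.0304). Chrna4 in beta against alpha cells (limma, adjusted p = 0.0616), Chrm2 in delta against alpha cells (0.0826) and Chrnb4 in delta against alpha cells (0.0848) did not pass there. With no filter and a pseudocount of 0.1 in place of 1, an alternative added after the data were seen, the numbers were 2 (5.69% of all genes), 2 (5.18%) and 4 (9.89%). Chrna4 was then called in both comparisons with beta cells (limma, adjusted p = 0.00475 and 0.00210) and Chrm2 in both with delta cells (limma, adjusted p = 0.0152 and 0.0145).

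Each hormone was highest in the cell type it defines. Gcg was at 184426 FPKM or more in each alpha cell sample and at 1817 or less elsewhere, Ins2 at 91248 or more in beta cells and 9094 or less elsewhere, and Sst at 101492 or more in delta cells and 2427 or less elsewhere. Chrm4 in alpha and beta cells was 10.2% (6.21% without alpha sample 1) and 5.72% of its delta cell mean, whereas Sst was 0.992% and 0.101% of its own. Chrm3 in alpha and delta cells was 11.7% and 19.5% of its beta cell mean, and Ins2 1.87% and 1.95%. Ppy, the pancreatic polypeptide gene, ranged from 17728 to 41392 FPKM in alpha cells and from 10857 to 48600 in delta cells, but from 16.9 to 98.1 in beta cells. The summed FPKM of 6 acinar markers was 0.0651 to 17.4 in alpha, 0.0136 to 4.34 in beta and 0.545 to 70.9 in delta cells, with Amy2a5 and Ptf1a listed at 0 throughout, and that of 4 immune markers was 0.615 to 1.83, 0.0277 to 2.79 and 0 to 8.62. Of the markers of autonomic neurons, Prph, Hand2 and Dbh were listed at 0 in all samples, while Elavl4 was at 11.2 FPKM or more in every sample of the 3 cell types. The part of such cells in the results was not tested. As the samples are bulk, fewer cells transcribing a gene and less RNA per cell cannot be told apart.

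The samples also differed in the summed FPKM of 77 ribosomal protein genes, which was above 50000 in 6 of them (delta samples 1 and 2, beta sample 2 and alpha samples 1 to 3). Chrm4 averaged 6.12 FPKM in delta cells above this limit and 6.73 below it, with 0.689 and 0.624 in alpha and 0.245 and 0.416 in beta cells. Chrm3 was at 6.26 FPKM in the 1 beta cell sample above it and averaged 2.85 below it, with 0.327 and 0.590 in alpha and 0.567 and 0.798 in delta cells. The order of the cell types for Chrm3 and Chrm4 was thus the same within both sets in the comparisons that were called. For Chrnb2 the order differed between the sets. Above the limit it averaged 1.26 FPKM in delta and 1.51 in alpha cells and was at 2.31 in the beta cell sample. Below it, the delta cells (mean 3.35, range 2.52 to 4.02 FPKM) lay above every alpha cell (1.99 to 2.46) and beta cell sample (1.17 to 2.06). The difference between the sets was not tested, and with the set as a covariate no comparison of Chrnb2 passed (limma, adjusted p = 0.835, 0.774 and 0.451 for beta minus alpha, delta minus alpha and delta minus beta).

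The genes most like each tested member over the 15 samples were found by Pearson's r of log2(FPKM + 1), so that they follow its pattern by construction. For Chrm3 they were Emid1 (r = 0.953; 8.87 FPKM in beta cells against 0.0276 in alpha and 0.182 in delta cells), B3galt1, a galactosyltransferase gene (r = 0.938), and Srp72, encoding a subunit of the signal recognition particle (r = 0.931). For Chrm4 they were Hgf, encoding hepatocyte growth factor (r = 0.963; 10.8 FPKM in delta cells against 0.433 and 0.0606 in alpha and beta cells), Lmo3, encoding a LIM-domain transcriptional cofactor (r = 0.961), and Avpr1a, encoding a vasopressin receptor that couples to Gq (r = 0.955; 7.67 against 0.0172 and 0.00381 FPKM). For Chrnb2 they were Sez6l2 (r = 0.924), the histone deacetylase gene Hdac4 (r = 0.886) and Samd4b (r = 0.885), which like Chrnb2 had their highest means in delta cells (125 FPKM for Sez6l2, against 95.4 in alpha and 55.8 in beta cells). These are descriptions over samples that share libraries and cell types.

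The genes around the receptors were taken from lists of 76 genes, of which 72 were in the table and 47 were tested. In beta against alpha cells 2 were higher and 5 lower, in delta against alpha cells 7 higher and 3 lower, and in delta against beta cells 10 higher and 3 lower. Over all genes tested, the shares called higher and lower were 2.84% and 4.82%, 5.33% and 1.48%, and 11.7% and 2.99% in the same order, and these are the background for the counts of each list that follows. The medians over the list were 0.05, 0.52 and 0.37 on the log2(FPKM + 1) scale, beside -0.13, 0.13 and 0.30 over all genes tested. The split between directions depended on the scaling. Under median-ratio size factors the higher and lower counts were 4 and 6, 6 and 5, and 9 and 5 (7.57% and 6.81%, 5.01% and 2.37%, and 9.57% and 9% of all genes). Under quantile normalization they were 3 and 6, 5 and 5, and 10 and 5 (6.86% and 7.41%, 4.63% and 2.91%, and 10.2% and 8.98%). With the replicate number as a block, delta against alpha cells had 4 higher and 3 lower (4.61% and 1.16% of all genes).

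Of the genes for making acetylcholine and taking up its precursor, Chat, encoding choline acetyltransferase, and Slc5a7, encoding the high-affinity choline transporter of cholinergic nerve endings, were both listed at 0 in all 15 samples. Slc18a3, encoding the vesicular transporter, was not analysed here. Slc44a1, encoding a choline transporter used by many cells, averaged 15.3 FPKM in alpha, 32.0 in beta and 14.9 in delta cells and did not pass the test. Its beta cell mean was 20.5 FPKM without beta sample 2, the highest at 66.7. In contrast, Ache, encoding acetylcholinesterase, differed between all 3 cell types. It was at 31.2, 4.87, 19.5, 19.0, 7.04 and 18.1 FPKM in delta samples 1 to 6, at 1.84, 7.93, 1.28, 4.27 and 2.46 FPKM in alpha samples 1 to 5, and at 0.0566, 0.171, 0.178 and 0.609 FPKM in beta samples 1 to 4. Every beta cell sample lay below every other sample, while alpha sample 2 was above delta samples 2 and 5. The difference of delta from beta cells was 3.61 ± 0.48 on the log2(FPKM + 1) scale (SE; limma, adjusted p = 8.8e-05) and that of delta from alpha cells 1.91 ± 0.45 (SE; limma, adjusted p = 0.0133), the latter lost with the replicate number as a block (limma, adjusted p = 0.0739). The difference of beta from alpha cells was -1.70 ± 0.49 (SE; limma, adjusted p = 0.0464), a call that was lost with this block (limma, adjusted p = 0.0749) and when any sample of the 2 cell types other than alpha sample 3 was left out (limma, adjusted p = 0.0571 to 0.119). Of the other genes of breakdown, Bche, encoding butyrylcholinesterase, was above 0 in 6 of 6 delta cell samples (mean 0.727 FPKM), 3 of 5 alpha cell samples and no beta cell sample, whereas Colq and Prima1, which anchor acetylcholinesterase, were listed at 0 throughout.

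None of the 11 other nicotinic subunit genes had a mean above 1 FPKM in a cell type, so none was tested. The highest was Chrnb1, a subunit of the muscle receptor, at 0.773 FPKM in alpha, 0.0714 in beta and 0.604 in delta cells. Alpha sample 1 was at 3.04 FPKM, above Chrnb2 in that sample (2.85 FPKM). Without alpha sample 1 the alpha cell mean of Chrnb1 was 0.207. Of 6 tested genes for nicotinic receptor assembly and for Ly6 proteins, which are small membrane-anchored modulators of these receptors, delta cells had 4 higher against beta cells (background over all genes 11.7%) and 3 higher against alpha cells (background 5.33%). Ly6h was at 57.2, 22.5, 19.5, 14.95, 5.99 and 4.02 FPKM in delta samples 1 to 6 and at 2.57 or less in all others, so that delta cells stood clear of both (3.39 ± 0.52 against alpha and 3.89 ± 0.56 against beta cells, SE; limma, adjusted p = 0.000442 and 0.000185). Lypd1 ranged from 3.34 to 13.9 FPKM in delta cells and reached 1.99 in alpha and 1.24 in beta cells (1.89 ± 0.33 and 2.05 ± 0.35, SE; limma, adjusted p = 0.00143 and 0.000888). Lypd6 was above 0 in all delta cell samples, at 1.16 to 30.4 FPKM, and otherwise only in alpha sample 2 at 0.204 (2.03 ± 0.54 and 2.09 ± 0.58, SE; limma, adjusted p = 0.0293 and 0.0223). The calls of Lypd6 were lost when any single alpha sample or delta sample 5 was left out (limma, adjusted p = 0.0526 to 0.0652, against alpha cells) or when beta sample 1 or 4 was left out (0.0557 and 0.0583, against beta cells). The fourth gene called against beta cells was Ly6e (1.91 ± 0.39, SE; limma, adjusted p = 0.00386), named to complete the count after its values were seen. Of these 4 genes, Ly6h and Lypd6 had a mean above 1 FPKM only in delta cells. They thus entered the test through the cell type in which they were high, and the counts are no measure of an excess. Ric3, encoding a chaperone of alpha7 receptors, was at 6.99, 8.02 and 6.53 FPKM in alpha, beta and delta cells and did not pass the test.

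**Figure D4:**
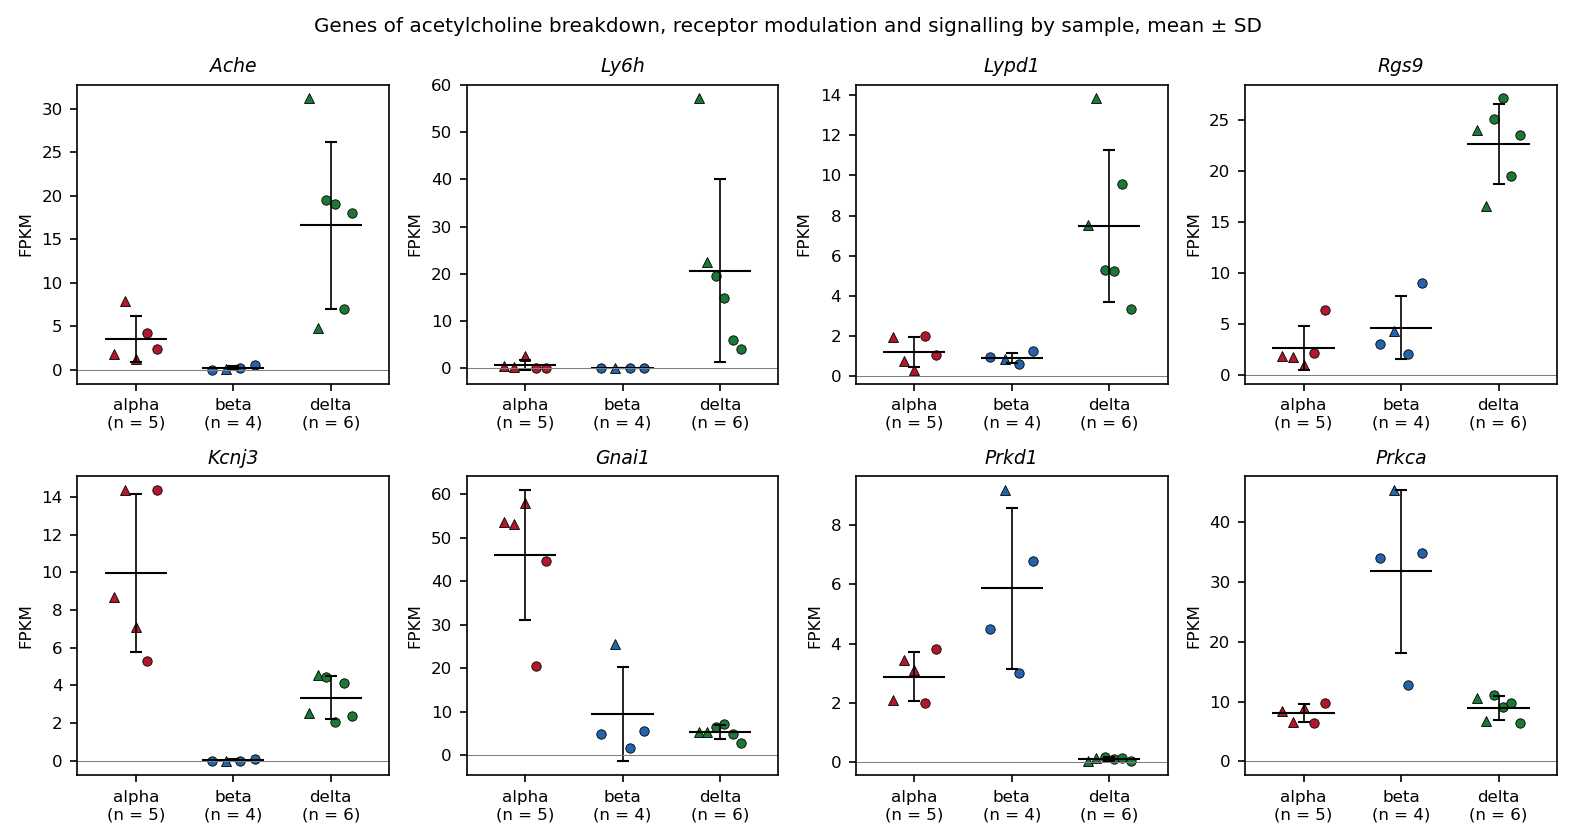
FPKM of 8 genes of acetylcholine breakdown, receptor modulation and signalling in each sample (vertical axes differ between panels), with the mean and SD. Ly6h, Lypd1 and Rgs9 are highest in every delta cell sample, Kcnj3 is near 0 in beta cells, Gnai1 is highest on average in alpha cells and Prkd1 is near 0 in delta cells.

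Along the Gi arm, used by M2 and M4, 9 genes were tested. In beta against alpha cells none was higher and 3 were lower (background over all genes 2.84% and 4.82%). Against alpha cells, delta cells had 2 of them higher and 2 lower (background 5.33% and 1.48%), and against beta cells 3 higher and none lower (background 11.7% and 2.99%). Kcnj3, encoding a subunit of the G-protein-gated potassium channel, averaged 9.97 ± 4.203 (SD, n = 5) FPKM in alpha, 3.35 ± 1.13 (SD, n = 6) in delta and 0.0269 ± 0.0537 (SD, n = 4) in beta cells. It was listed at 0 in 3 of 4 beta cell samples, and no alpha cell sample overlapped a delta cell sample. All 3 differences passed the test (beta minus alpha -3.33 ± 0.32, delta minus alpha -1.29 ± 0.29 and delta minus beta 2.04 ± 0.31, SE; limma, adjusted p = 5.5e-06, 0.0105 and 0.000316). Kcnj6, encoding a partner subunit, averaged 4.79, 0.713 and 3.94 FPKM in alpha, beta and delta cells. Its log2 difference was -1.64 for beta minus alpha (limma, adjusted p = 0.0173) and 1.43 for delta minus beta cells (limma, adjusted p = 0.0168), both calls being lost without beta sample 1 (limma, adjusted p = 0.0528 and 0.0510).

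Gnai1, encoding a Gi alpha subunit, was at 20.5 to 58.1 FPKM in alpha cells, against 2.66 to 7.10 in delta cells and 1.68, 4.93, 5.53 and 25.6 in beta cells, where sample 2 overlapped alpha cells. It was lower in delta and in beta cells than in alpha cells (-2.86 ± 0.48 and -2.61 ± 0.53, SE; limma, adjusted p = 0.000982 and 0.00603). Rgs9, encoding a regulator that speeds the shut-off of Gi proteins, was at 16.6 to 27.2 FPKM in delta cells and at most 6.41 in alpha and 9.06 in beta cells (2.83 ± 0.36 and 2.195 ± 0.39, SE; limma, adjusted p = 7.8e-05 and 0.00108). The second gene higher in delta than in alpha cells was its relative Rgs7, named after its values were seen (0.99 ± 0.28, SE; limma, adjusted p = 0.0440), whose call was lost without any one of alpha samples 1, 2, 3 and 5 or delta samples 1, 2, 3 and 5 (limma, adjusted p = 0.0537 to 0.0921) and with the replicate number as a block (limma, adjusted p = 0.0689). Gnai2, Gnai3, Gnao1 and Gnaz, encoding the other alpha subunits of this family, did not pass the test in any comparison, and Gnao1 had the highest mean of them in each cell type (86.5, 167 and 146 FPKM in alpha, beta and delta cells, and 110.6 in beta cells without sample 4).

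Along the Gq arm, used by M1, M3 and M5, 16 genes were tested, of which beta cells had 2 higher against alpha cells (background over all genes 2.84%) and delta cells had 2 lower against beta cells (background 2.99%). In delta against alpha cells, 1 was higher and 1 lower (background 5.33% and 1.48%). Prkca, encoding protein kinase C alpha, was at 34.0, 45.5, 12.8 and 34.9 FPKM in beta samples 1 to 4, above all alpha (6.39 to 9.86) and all delta cell samples (6.36 to 11.2). The difference was 1.74 ± 0.36 for beta minus alpha and -1.61 ± 0.34 for delta minus beta cells (SE; limma, adjusted p = 0.00644 and 0.00463). Prkcb, encoding the beta isoform, was also higher in beta than in alpha cells (2.55 ± 0.61, SE; limma, adjusted p = 0.0184), a call lost without alpha sample 2 or beta sample 4 (limma, adjusted p = 0.0526 and 0.0724). Prkd1, encoding protein kinase D1, a target of protein kinase C, was at most 0.187 FPKM in delta cells, against at least 2.00 in alpha and 3.01 in beta cells (-1.79 ± 0.26 and -2.54 ± 0.28, SE; limma, adjusted p = 0.000333 and 1.5e-05). Itpr3, encoding a receptor for inositol trisphosphate, was the only gene of this list higher in delta than in alpha cells (1.30 ± 0.36, SE; limma, adjusted p = 0.0357), and lost its call without any one of alpha samples 1 to 3 or delta samples 3 to 6 (limma, adjusted p = 0.0693 to 0.1001) and with the replicate block (limma, adjusted p = 0.0678). Gnaq, Gna11 and the tested phospholipase C genes Plcb1, Plcb3 and Plcb4 did not pass the test in any comparison.

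Among receptor kinases, arrestins and RGS proteins, 14 were tested. In beta against alpha cells 1 was lower (background over all genes 4.82%), in delta against alpha cells none was called, and in delta against beta cells 2 were higher and 1 lower (background 11.7% and 2.99%). Rgs4, encoding a regulator that acts on Gi and Gq proteins, averaged 64.3 ± 33.3 (SD, n = 5) FPKM in alpha, 30.5 ± 12.04 (SD, n = 6) in delta and 4.92 ± 4.97 (SD, n = 4) in beta cells (2.59 without beta sample 2), and the beta cells lay below all other samples (-3.67 ± 0.55 against alpha cells, and 2.69 ± 0.53 for delta minus beta cells, SE; limma, adjusted p = 0.000475 and 0.00273). Rgs19 was called in delta against beta cells, where it was higher (2.11 ± 0.54, SE; limma, adjusted p = 0.0142), a call lost without beta sample 4 (limma, adjusted p = 0.0532). Grk5, encoding a receptor kinase, was lower in delta than in beta cells (-1.87 ± 0.41, SE; limma, adjusted p = 0.00586). Arrb1 and Arrb2, encoding the beta-arrestins, did not pass the test in any comparison.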

How the data were processed

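FPKM values of 38283 genes in 15 samples, 1 column per sample, were deposited by the authors. According to the submitters' processing notes, reads were aligned to GRCm38 with TopHat2 2.0.8 and FPKM estimated with Cufflinks 2.2.1. The published methods name a later TopHat version. The annotation release, scaling between libraries and use of strand were not given in the sources used here. RNA was amplified before library preparation. The raw counts on which the authors ran edgeR were not used here, so no count test was run.

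Genes with a mean above 1 FPKM in at least 1 cell type (14405) were tested with limma on log2(FPKM + 1), all 15 samples in one fit with no covariate, and Benjamini-Hochberg adjustment over all of them, and an adjusted p under 0.05 was a call. The fit was tested on simulated data. Single members were compared by exact permutation of log2(FPKM + 1) with SciPy 1.17.1. The genes named are the members, the tested genes for synthesis and breakdown, up to 3 called genes with the largest differences per pathway list and comparison, the 3 genes most like each tested member, overlapping neighbours and hormones. Others are named as examples of a list. Members, lists and the ribosomal limit were chosen with earlier results of these data known. Depth was recovered in 6 samples and is unknown in 9, and no detection floor is given. Other pseudocounts, filters, thresholds, scalings, a fit of 2 cell types, the replicate number as a block, a covariate for the ribosomal set and leaving out each sample were tried. Samples of 1 cell type are labelled as replicates, and whether they came from separate sorts is not stated. As beta cells were Venus-negative cells of the Glu-Venus sorts, alpha and beta samples may share mice. The main fit treats them as independent. A gene among the markers is not reported here.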

Additional observations from a re-analysis of the deposited data

Results flagged for a closer look

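In 13 of 70 groups of values examined (members and named pathway genes by cell type), 1 sample stood apart from the rest by a test on the gap to its neighbour. Among the members these were Chrm4 in delta sample 5 (8.91 FPKM), Chrnb4 in beta sample 1 (0.179 FPKM), Chrna7 in beta sample 3 (0.0358 FPKM) and Chrna3 in beta sample 1 (0.0105 FPKM), the last 2 being the only beta cell samples above 0 for these genes. Among pathway genes, alpha sample 5 stood apart for Kcnj6 (10.2 FPKM), Prkcb (9.28 FPKM) and Rgs9 (6.41 FPKM). Ly6h stood apart in alpha sample 3 (2.57 FPKM) and in delta sample 1 (57.2 FPKM), and Lypd6 in alpha sample 2 (0.204 FPKM) and in delta sample 2 (30.4 FPKM). In beta cells, Gnai1 stood apart in sample 2 (25.6 FPKM) and Kcnj3 in sample 4 (0.107 FPKM).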

How the results depend on the processing

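The calls of Chrm3 and Chrm4 were the same genes in the same direction under all alternatives run, including another threshold (adjusted p under 0.01), both scalings, the fit of only the 2 cell types and leaving out each sample. Leaving out each sample, the differences of Chrm3 ranged from 1.41 to 1.90 for beta minus alpha and from -1.64 to -1.14 for delta minus beta, and those of Chrm4 from 2.14 to 2.47 for delta minus alpha and from 2.37 to 2.56 for delta minus beta. With no filter and a pseudocount of 0.1, chosen after seeing the data, the members called rose to 2, 2 and 4 (beta minus alpha, delta minus alpha, delta minus beta). With no filter alone they were 1, 1 and 3.

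Differences that passed no test changed sign in places. Chrm4, beta minus alpha, ranged from -0.318 to 0.0151 on leaving out each sample, the positive value being without alpha sample 1. Chrnb2, beta minus alpha, ranged from -0.17 to 0.15 on leaving out each sample and was -0.15 with the ribosomal set as a covariate, and Chrnb2, delta minus beta, was -0.15 after quantile normalization. The cause was not tested. Median-ratio size factors moved the median of all genes by 0.13, -0.12 and -0.28 in the 3 comparisons, and quantile normalization by 0.12, -0.14 and -0.29.

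The pathway genes called, 7, 10 and 13, ranged from 5 to 8, 7 to 10 and 11 to 16 on leaving out each sample. In beta minus alpha they were 3 in the fit of only the 2 cell types, which has fewer samples (3.61% of all genes called there), and 4 at the stricter threshold (3.2%), and in delta minus alpha 5 at that threshold (3.94%). The alternatives for single pathway genes, and the folds, levels and shares of single genes with a sample left out, were added after seeing the data. Calls were lost (limma, adjusted p in brackets) in the fit of only the 2 cell types by Ache (0.0593), Gnai1 (0.0665), Kcnj6 (0.0506) and Prkcb (0.0937) in beta minus alpha, by Itpr3 (0.0677) and Lypd6 (0.0813) in delta minus alpha and by Lypd6 (0.0688) in delta minus beta. Under size factors and quantile normalization they were lost by Kcnj6 in delta minus beta (0.0535 and 0.0730) and Itpr3 in delta minus alpha (0.0739 and 0.0721), and under the latter by Lypd6 in delta minus alpha (0.0583). With no filter they were lost by Ache in beta minus alpha (0.0814) and by Itpr3 (0.0607) and Lypd6 (0.0524) in delta minus alpha, with the filter at 0.5 FPKM by Ache in beta minus alpha (0.0516), with a pseudocount of 0.1 by Rgs7 in delta minus alpha (0.0575), and with both changes by Itpr3 in delta minus alpha (0.0588).

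Same-numbered samples deviated from their cell type's mean with correlations averaging 0.0762 over 13 pairs, from -0.152 to 0.281. Not all were above 0.1, so the numbers are not shown to pair samples, although the pairs numbered 2 gave 0.271, 0.281 and 0.268. With the replicate number as a block, the members called stayed at 1, 1 and 2 and the pathway genes were 7, 7 and 13 (8.52%, 5.77% and 13.9% of all genes). Depth was recovered in no beta cell sample, and reads behind a value were computed for Chrm4, Chrm5 and Chrnb4 only. FPKM without depth gives no counting error.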
